A study of Xenopus tropicalis with 9 samples.

Results

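The eye field is the region of the anterior neural plate that gives rise to both eyes, and 8 transcription factor genes that mark or pattern it are described here in neurulae of *Xenopus tropicalis* at stage 14: *rax*, *pax6*, *six3*, *six6*, *lhx2*, *nr2e1*, *vax1* and *vax2*. They were chosen by name, with earlier results of these data known, and all 8 are among the 23633 genes of the deposited table. RNA was sequenced from whole embryos of the Nigerian strain in 9 libraries, 3 in each group. Fgf4 overexpressing embryos had received 5 pg of Cska-Fgf4 plasmid, which drives *fgf4* once the zygotic genome is active. Cic knockdown embryos received 1 ng of each mRNA of a TALEN pair, nucleases that cut the *cic* gene in the part that encodes its DNA binding domain, so that the injected generation carries a mosaic of edits. Control embryos were injected with water. The labels give no allele or agent common to all groups, and how many embryos were pooled in a library is not given in the sources used here. The comparisons ask which anterior genes are lower when Fgf signalling is raised and when Cic, a transcriptional repressor that receptor tyrosine kinase signalling inactivates, is targeted.

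In vertebrates the eye field forms where signals that posteriorise the neural plate, among them Wnt and Fgf, are kept low. Its regulators are expressed in overlapping domains and activate each other's transcription, and loss of single members leaves eyes small, malformed or absent. At the neurula stage they lie in a single anterior band that later splits to either side of the midline. Because whole embryos were sequenced, a lower value cannot tell apart fewer eye field cells and less RNA in each cell.

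Levels are given as TPM, transcript abundance scaled for transcript length and library, so levels of different genes can be compared. The deposited TPM had been rescaled between libraries, and the totals ran between 871757 and 1162165. No counts are kept, so the depth behind each value is unknown and precision rests on the spread of 3 libraries. The transgene was high in all 3 Fgf4 libraries, but unevenly, with *fgf4* at 1692, 168 and 95.4 TPM in replicates 1, 2 and 3, against 3.23, 4.07 and 0.953 TPM in the control libraries. *cic* averaged 13.4 ± 1.46 TPM in Cic knockdown embryos and 14.0 ± 0.677 TPM in control embryos (SD, n = 3 each). Cutting of a gene need not lower its transcript, so *cic* does not check the knockdown label. Cic knockdown libraries and Fgf4 replicate 2 were also higher in a list of oocyte and maternal genes than the other libraries, as described with the other marker lists.

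In the control embryos the 8 members spanned a wide range of levels. *pax6* stood highest at 82.1 ± 14.9 TPM, *rax* at 55.8 ± 21.4 TPM and *six3* at 32.9 ± 10.8 TPM (SD, n = 3). *lhx2* followed at 9.65 ± 6.82 TPM. The remaining 4 were near the lower limit of what was tested, with means of 2.66 TPM for *six6*, 2.03 TPM for *vax2*, 1.22 TPM for *nr2e1* and 0.916 TPM for *vax1*. Replicates 1 and 3 gave this same order, whereas in control replicate 2 the last 4 places were taken by *six6*, *vax1*, *nr2e1* and *vax2*. Control replicate 2 was the lowest control library for all 8 members. Its distance from the others was small for the abundant members, the highest control being 1.40 times the lowest for *pax6*, and large for the rare ones, at 11 times for *six6* and 24.1 times for *vax2*.

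In Fgf4 overexpressing and in Cic knockdown embryos, 5 of the 8 members, *rax*, *pax6*, *six3*, *six6* and *lhx2*, were lower in every treated library than in any control library. The members together summed to 16.2, 12.5 and 69.2 TPM in Fgf4 replicates 1, 2 and 3 and to 12.5, 48.0 and 31.5 TPM in the Cic knockdown replicates, against 236, 141 and 184 TPM in the control replicates. Among all genes tested, 3.25% had all Fgf4 libraries under all control libraries, and 5.18% had all Cic knockdown libraries under them. Both comparisons use the same 3 control libraries and are therefore not independent.

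**Figure D1:**
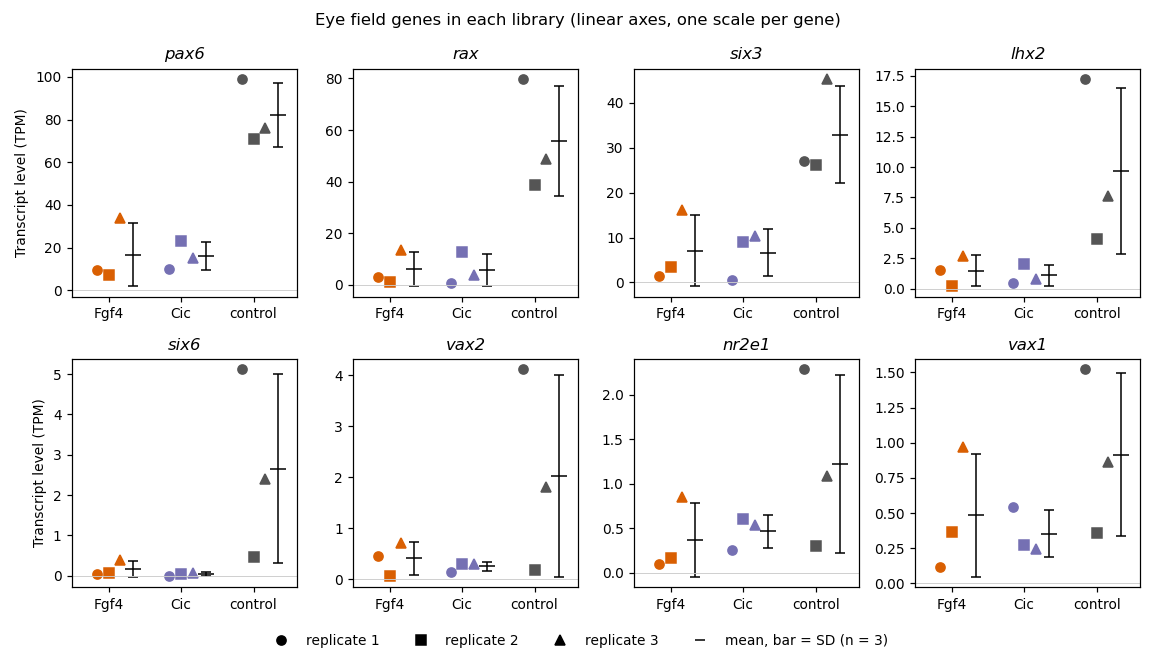
TPM of each eye field gene in each library, with Fgf4 overexpressing, Cic knockdown and control embryos from left to right, linear axes with a scale of their own per gene, symbols for the replicate number, and the mean with its SD (n = 3) beside each group. For *rax*, *pax6*, *six3*, *lhx2* and *six6* all 6 treated libraries lie under the lowest control library, whereas for *vax2*, *nr2e1* and *vax1* control replicate 2 lies among them.

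Changes were tested with limma on log2(TPM + 0.5), with replicate number as a block for embryo batch. The added 0.5 TPM makes the change of rare genes look smaller than it is. A call of lower or higher required an unadjusted limma p no larger than 0.01, a fold change beyond 0.571 or 1.75, and a mean of 1.5 TPM in a group compared. Of the 8 members, 6 passed this filter against control, and *six6*, *lhx2* and *vax2* passed it through the control mean alone, so that they entered the test only because control was high. Under Fgf4 overexpression 4 members were called lower (*rax*, *pax6*, *six3* and *lhx2*), where 1.16% of 13437 genes were called lower. Under Cic knockdown 5 were called lower (the same 4 and *six6*), where 0.75% of 13598 genes were. The study had already listed *rax*, *pax6* and *six3* as lower under both treatments in these data. The shares over all genes are therefore no independent test of the members. At an unadjusted limma p under 0.05 the counts were 5 under Fgf4 overexpression and 6 under Cic knockdown. None passed a Benjamini-Hochberg adjusted p of 0.05 in either comparison, nor did any other gene, the lowest adjusted limma p over all genes being 0.0711 under Fgf4 overexpression and 0.0712 under Cic knockdown. The calls also depended on single libraries. Without Fgf4 replicate 1 no member was called under Fgf4 overexpression, with 4 under an unadjusted p of 0.05, and without Cic knockdown replicate 3 none was called under Cic knockdown, with 5 under 0.05. Every member tested stayed below its control value in each of these fits.

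*rax* encodes a paired-like homeodomain protein without which mice and frogs form no retina, and it is among the earliest genes confined to the eye field. It was at 3.12, 1.20 and 13.5 TPM in Fgf4 replicates 1, 2 and 3 and at 0.526, 12.7 and 3.88 TPM in the Cic knockdown replicates, against 79.8, 38.8 and 48.8 TPM in the control replicates. The highest treated library, Fgf4 replicate 3, was thus well under the lowest control library. The mean left was 10.6% of control in Fgf4 overexpressing embryos and 10.2% in Cic knockdown embryos. The log2 change was -3.61 with a standard error (SE) of 0.98 under Fgf4 overexpression (limma adjusted p = 0.30) and -3.79 with an SE of 0.98 under Cic knockdown (limma adjusted p = 0.136). It was called lower in both, but in only 4 and 5 of the 12 fits that left out a library or a replicate number. Within the treated groups *rax* varied more than *pax6* or *six3*, by 11.3 times between Fgf4 libraries and by 24.1 times between Cic knockdown libraries, against 2.06 times between control libraries.

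*pax6* carries a paired domain and a homeodomain and acts in eye formation from flies to vertebrates. It is also expressed outside the eye field, in the forebrain, hindbrain and spinal cord. It was at 9.35, 6.99 and 34.0 TPM in Fgf4 replicates 1, 2 and 3 and at 9.99, 23.0 and 15.3 TPM in the Cic knockdown replicates, against 99.1, 71.0 and 76.3 TPM in the control replicates. No treated library reached the control range, and Fgf4 replicate 3 came closest. The mean left was 20.4% of control in Fgf4 overexpressing embryos and 19.6% in Cic knockdown embryos. The log2 change was -2.58 (SE 0.52, limma adjusted p = 0.287) under Fgf4 overexpression and -2.38 (SE 0.52, limma adjusted p = 0.0993) under Cic knockdown. *pax6* kept its call in 10 of the 12 leave-out fits under Fgf4 overexpression and in 8 of 12 under Cic knockdown.

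*six3* and *six6* are closely related homeodomain genes. *six3* acts in the whole anterior forebrain and eye field, where it represses Wnt genes, and *six6*, also known as Optx2, drives the proliferation of retinal progenitors in *Xenopus*. *six3* was at 1.51, 3.44 and 16.1 TPM in Fgf4 replicates 1, 2 and 3 and at 0.546, 9.05 and 10.3 TPM in the Cic knockdown replicates, against 27.1, 26.2 and 45.4 TPM in the control replicates. All treated libraries were under the control range, the lowest being replicate 1 of each treatment. The log2 change of *six3* was -2.67 (SE 0.61, limma adjusted p = 0.288) under Fgf4 overexpression and -2.76 (SE 0.61, limma adjusted p = 0.103) under Cic knockdown. Without the replicate block its calls were lost, at an unadjusted limma p of 0.0230 under Fgf4 overexpression and 0.0196 under Cic knockdown. With the block it kept its call in 10 of 12 leave-out fits in each comparison.

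*six6* was at 0.0467, 0.0647 and 0.386 TPM in Fgf4 replicates 1, 2 and 3 and at 0, 0.0507 and 0.0767 TPM in the Cic knockdown replicates, against 5.12, 0.465 and 2.39 TPM in the control replicates. It was the only member listed at 0 in a library, and the control library nearest to the treated ones was replicate 2. The mean left was 6.24% of control in Fgf4 overexpressing embryos and 1.60% in Cic knockdown embryos, the lowest shares of the 8 members. With a pseudocount of 0.5 TPM the log2 change of so rare a gene is bounded. For *six6* a complete loss from the control mean would read as -2.66. The fitted change averages the log2 values of uneven control libraries, so its bound is a smaller fall, which was not computed. The fitted log2 change of *six6* was -1.95 (SE 0.58, limma adjusted p = 0.305, not called) under Fgf4 overexpression. Under Cic knockdown it was -2.21 (SE 0.58, limma adjusted p = 0.138, called).

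*lhx2* encodes a LIM homeodomain protein that the mouse optic vesicle needs to develop further. It was at 1.55, 0.183 and 2.71 TPM in Fgf4 replicates 1, 2 and 3 and at 0.464, 2.05 and 0.773 TPM in the Cic knockdown replicates, against 17.2, 4.06 and 7.63 TPM in the control replicates. The treated and control libraries did not overlap, and 15.3% of the control mean was left in Fgf4 overexpressing embryos and 11.4% in Cic knockdown embryos. The log2 change was -2.40 (SE 0.69, limma adjusted p = 0.302) under Fgf4 overexpression and -2.57 (SE 0.69, limma adjusted p = 0.144) under Cic knockdown. These calls were the least stable beside those of *rax*, made in 4 of 12 leave-out fits in each comparison.

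The members that act later in the ventral eye and in progenitor growth were rare at this stage and were not called. *vax2*, a homeodomain gene of the ventral retina, was at 0.444, 0.0631 and 0.716 TPM in Fgf4 replicates 1, 2 and 3 and at 0.148, 0.301 and 0.304 TPM in the Cic knockdown replicates, against 4.11, 0.170 and 1.80 TPM in the control replicates. It overlapped through control replicate 2, and its log2 change was -1.15 (SE 0.58, limma adjusted p = 0.436) under Fgf4 overexpression and -1.36 (SE 0.58, limma adjusted p = 0.290) under Cic knockdown. *vax1*, its paralogue of the optic stalk, was at 0.120, 0.364 and 0.970 TPM in the Fgf4 replicates and at 0.544, 0.271 and 0.244 TPM in the Cic knockdown replicates, against 1.52, 0.362 and 0.864 TPM in the control replicates. *nr2e1*, the orphan nuclear receptor Tailless of neural and retinal progenitors, was at 0.0939, 0.171 and 0.851 TPM in the Fgf4 replicates and at 0.255, 0.604 and 0.537 TPM in the Cic knockdown replicates, against 2.29, 0.301 and 1.08 TPM in the control replicates. Both stayed under the filter, and in a fit without it the log2 change of *vax1* was -0.53 (SE 0.38) under Fgf4 overexpression and -0.66 (SE 0.38) under Cic knockdown, and that of *nr2e1* was -0.91 (SE 0.46) under Fgf4 overexpression and -0.68 (SE 0.46) under Cic knockdown. For both genes the treated and control libraries overlapped. At these levels a difference was not detectable between 3 libraries a group, which does not show that the genes were unchanged.

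Library by library, 7 of the 8 members were lower than the control of the same replicate number in all 3 Fgf4 libraries, *vax1* being the exception, where 19.3% of all genes tested were. In Cic knockdown embryos 6 of 8 were, all but *nr2e1* and *vax2*, where 25.3% of all genes were. The size of the loss differed widely between replicate numbers. Fgf4 replicate 3, the Fgf4 library with the least *fgf4*, kept the largest share of the *rax* and *pax6* of its control among the Fgf4 libraries, at 27.7% for *rax* and 44.5% for *pax6*, against 3.91% and 9.44% in Fgf4 replicate 1, the library with the most *fgf4*. Fgf4 replicate 2, with *fgf4* at 168 TPM, stood apart from that order for *rax*, at 3.09% of its control, and for *lhx2*, at 4.52%. It stood between the other Fgf4 libraries for *pax6* (9.85%), *six3* (13.1%), *six6*, *vax2*, *nr2e1* and *vax1*. With 3 libraries no relation between the transgene and the loss can be tested. In Cic knockdown embryos the smallest loss fell on replicate 2 for *rax*, *six3*, *pax6*, *lhx2* and *six6*. There *rax* kept 32.7% of its control, against 0.659% in replicate 1, where it showed the largest loss of any member on the log2 scale (-6.29).

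**Figure D2:**
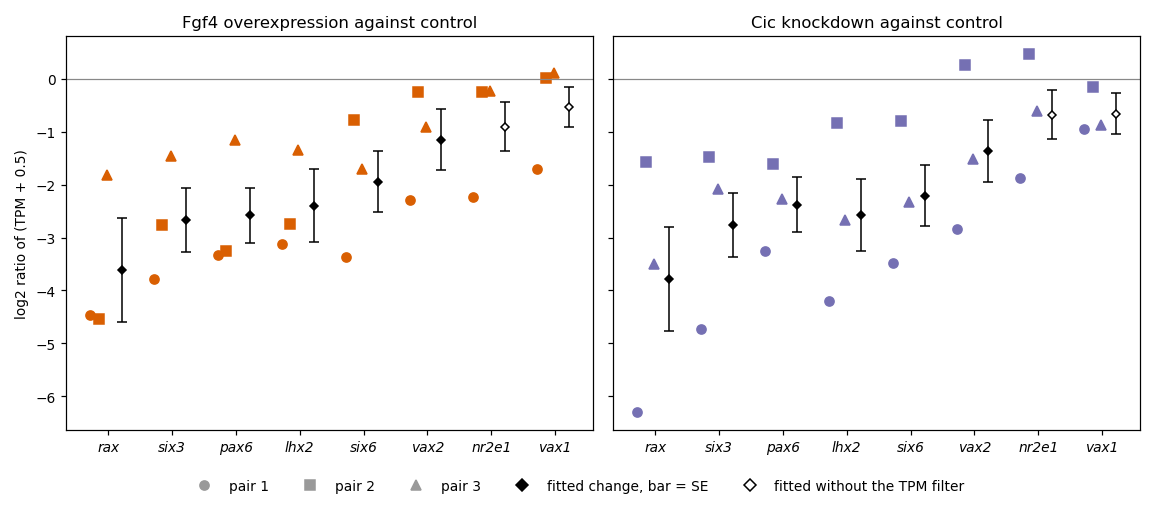
Log2 ratio of (TPM + 0.5) of each treated library to the control library of the same replicate number, for Fgf4 overexpression on the left and Cic knockdown on the right, with symbols for the replicate number and diamonds for the fitted change with its SE, open where the gene was under the TPM filter. Pair 3 sits nearest to 0 for *rax*, *six3*, *pax6* and *lhx2* under Fgf4 overexpression and pair 2 under Cic knockdown, and *rax* has the lowest fitted change in both panels, -3.61 and -3.79.

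The order of loss on the log2 scale was *rax*, *six3*, *pax6*, *lhx2*, *six6* and *vax2* under Fgf4 overexpression and *rax*, *six3*, *lhx2*, *pax6*, *six6* and *vax2* under Cic knockdown. Of neighbours in this order, only *rax* and *six3*, and *six6* and *vax2*, stood the same way in every replicate pair. *rax* lost more than *six3* in 3 of 3 pairs of both comparisons, by a mean of 0.94 under Fgf4 overexpression and 1.02 under Cic knockdown on the log2 scale. In Cic knockdown pair 2 they were nearly level, with *rax* minus *six3* at -0.0904. *six6* lost more than *vax2* in 3 of 3 pairs, by a mean of 0.79 under Fgf4 overexpression and 0.84 under Cic knockdown. An exact permutation test that swaps conditions within pairs gave a two-sided p of 0.25 for each, the smallest that 3 pairs allow. As neighbours were ranked by these same changes, the direction of each mean was fixed beforehand, and the test adds no support for the order. Neighbours between *six3* and *six6* changed places among the pairs and cannot be ordered. The place of the rare members also depended on the pseudocount. At 0.1 TPM in place of 0.5 TPM, *six6* moved up behind *rax*, at -3.10 under Fgf4 overexpression and -3.81 under Cic knockdown, and by the share of control left *six6* led in Fgf4 pairs 1 and 3 and in all 3 Cic knockdown pairs.

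Ratios between members show whether the losses were even. *rax* amounted to 33.4%, 17.1% and 39.8% of *pax6* in Fgf4 replicates 1, 2 and 3 and to 5.26%, 55.3% and 25.4% in the Cic knockdown replicates, against 80.6%, 54.7% and 64.0% in the control replicates. All Fgf4 libraries were under the control range, whereas Cic knockdown replicate 2 was inside it. *six3* relative to *pax6* overlapped between all groups, at 16.2%, 49.3% and 47.3% in the Fgf4 replicates and 5.47%, 39.4% and 67.4% in the Cic knockdown replicates, against 27.4%, 37.0% and 59.5% in the control replicates.

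Cic knockdown was then set directly against Fgf4 overexpression. All 8 members overlapped between both groups of libraries, and 2.09% of all genes tested had every Cic knockdown library under every Fgf4 library. Only 1 of the 8 members, *six6*, was lower in Cic knockdown embryos in all 3 pairs, no larger a share than the 13.7% of genes tested. *six6* was under the TPM filter in both groups, at 0.386 TPM or less, so no difference is read from it. For the 3 members above the filter in either group, the log2 difference of Cic knockdown minus Fgf4 overexpression was -0.18 for *rax* (95% interval -2.48 to 2.12), 0.20 for *pax6* (-1.01 to 1.42) and -0.09 for *six3* (-1.53 to 1.34), with adjusted limma p of 0.945, 0.874 and 0.954. None of the 3 was called lower, where 0.375% of 13607 genes were, and none was under an unadjusted limma p of 0.05. The intervals are wide enough to hold a difference of over 2-fold in either direction for *pax6* and *six3* and of over 4-fold for *rax*, so the treatments are not shown to act alike on these genes. In the fit without the filter the other 5 members lay between -0.26 for *six6* and 0.23 for *nr2e1*. *rax*, *six3*, *lhx2* and *vax2* were lower in Cic knockdown than in Fgf4 overexpressing embryos in pairs 1 and 3 and higher in pair 2. The log2 ratio of *rax* was -1.82, 2.96 and -1.68 in pairs 1, 2 and 3. Leaving out a library or a replicate number turned the sign of the difference for *rax* in 6 of 12 fits.

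**Figure D3:**
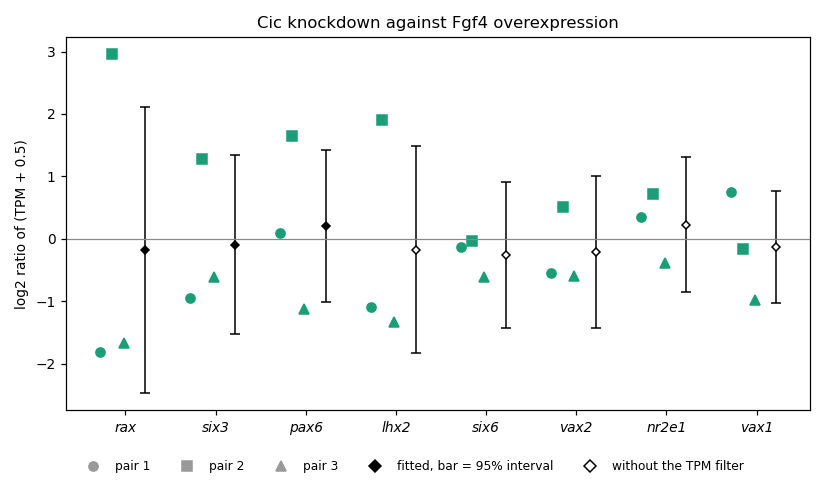
Log2 ratio of (TPM + 0.5) of each Cic knockdown library to the Fgf4 overexpressing library of the same replicate number for the 8 eye field genes, with diamonds for the fitted difference and bars for its 95% interval, open where the gene was under the TPM filter. Every interval crosses 0, and pair 2 lies above 0 for *rax*, *six3*, *pax6* and *lhx2*, at 2.96 for *rax*.

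Of the general neural plate genes, *sox2* and *sox3* were called lower under Cic knockdown, and none was called under Fgf4 overexpression. *sox2*, a gene of all neural progenitors, was at 145, 165 and 206 TPM in Fgf4 replicates 1, 2 and 3 and at 60.5, 109 and 137 TPM in the Cic knockdown replicates, against 181, 222 and 239 TPM in the control replicates. Cic knockdown libraries were all under the control and Fgf4 libraries, and Fgf4 and control libraries overlapped. Its log2 change was -0.32 (SE 0.18, limma adjusted p = 0.469) under Fgf4 overexpression and -1.13 (SE 0.18, limma adjusted p = 0.0738, called) under Cic knockdown. The difference of Cic knockdown minus Fgf4 overexpression was itself called, at -0.81 (SE 0.18, limma adjusted p = 0.331). *sox3*, its close relative, was also called lower under Cic knockdown, at -1.06 (SE 0.30, limma adjusted p = 0.156), and stood at -0.71 (SE 0.30, limma adjusted p = 0.370) under Fgf4 overexpression. Of 9 genes of the whole neural plate tested, none was called under Fgf4 overexpression, with 3 at an unadjusted limma p under 0.05 (*sox11*, *ncam1* and *sox3*), and 2 were called lower under Cic knockdown. *sox11* was lower by a like amount in both, at -0.62 and -0.64 (SE 0.12 each), short of the fold limit. *ncam1* stood at -1.24 under Fgf4 overexpression and -1.38 under Cic knockdown (SE 0.50 each). The medians of the 9 were -0.427 and -0.456, against 0.0133 and -0.0217 over all genes tested.

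The eye field genes were therefore also measured against the neural plate of the same library. *rax* amounted to 2.16%, 0.726% and 6.56% of *sox2* in Fgf4 replicates 1, 2 and 3 and to 0.869%, 11.7% and 2.84% in the Cic knockdown replicates, against 44.1%, 17.5% and 20.4% in the control replicates. *pax6* amounted to 6.46%, 4.24% and 16.5% of *sox2* in the Fgf4 replicates and to 16.5%, 21.1% and 11.2% in the Cic knockdown replicates, against 54.7%, 32.0% and 31.9% in the control replicates. For both genes no treated library reached the control range, and the share of all genes of which this holds is not given here. *sox2* was itself called lower under Cic knockdown, so it is not a fixed yardstick. In a fit relative to the mean log2 level of *sox2* and *sox3*, which raised the median change of all genes to 0.529 under Fgf4 overexpression and 1.08 under Cic knockdown, the log2 change of *rax* was -3.09 (SE 0.60) under Fgf4 overexpression and -2.69 (SE 0.60) under Cic knockdown. That of *six3* was -2.15 (SE 0.46) under Fgf4 overexpression and -1.67 (SE 0.46) under Cic knockdown, and that of *pax6* was -2.07 (SE 0.42) and -1.28 (SE 0.42) in these comparisons. These 3 were called lower in both, and *lhx2* under Fgf4 overexpression (-1.88, SE 0.58), where 0.536% of all genes were called lower under Fgf4 overexpression and 0.103% under Cic knockdown. *six6* was not called in this fit, at -1.43 (SE 0.64) under Fgf4 overexpression and -1.11 (SE 0.64) under Cic knockdown.

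**Figure D4:**
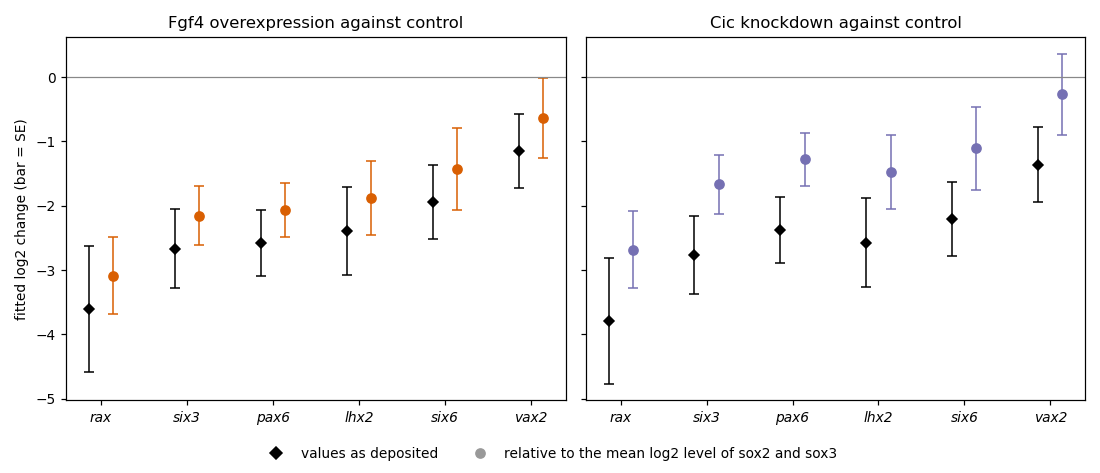
Fitted log2 change with its SE (3 libraries a group) of the 6 eye field genes above the filter, for Fgf4 overexpression on the left and Cic knockdown on the right, from the deposited values (black diamonds) and relative to the mean log2 level of *sox2* and *sox3* in each library (coloured circles). Relative to the neural plate all 6 stay below 0, with *rax* at -3.09 and -2.69.

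Other tissues and the state of the libraries were measured by lists of marker genes. Oocyte and maternal genes moved with the Cic knockdown group, with 10 of 14 called higher, where 3.99% of all genes were, and a median log2 change of 1.77. Of those called, *btg4*, *bmp15* and *gdf9* had control means of 0.976, 0.0499 and 0.280 TPM. They passed the TPM filter through the Cic knockdown mean alone, so they entered that test only because Cic knockdown was high. *btg4*, which acts in clearing maternal RNA, had a log2 change of 3.85 (SE 0.44, limma adjusted p = 0.0712), *velo1*, which encodes a protein of the oocyte's Balbiani body, of 3.36 (SE 0.59, limma adjusted p = 0.0765), *wee2*, an inhibitory kinase of the oocyte cell cycle, of 3.27 (SE 0.54, limma adjusted p = 0.0757), and *mos*, the kinase that holds the egg in meiotic arrest, of 1.61 (SE 0.28, limma adjusted p = 0.0765). None of 12 was called under Fgf4 overexpression, with 2 at an unadjusted limma p under 0.05 and a median of 0.505. Summed, the 14 genes ran between 167 and 504 TPM in Fgf4 libraries and between 468 and 563 TPM in Cic knockdown libraries, against 168 and 314 TPM in control libraries. The median deviation of the list was 1.07, 0.872 and 0.825 in Cic knockdown replicates 1, 2 and 3 and 0.884 in Fgf4 replicate 2, whereas the other Fgf4 and the control libraries lay between -0.932 and -0.523. In Fgf4 replicates 1 and 3, where the list was low, *rax* stood at 3.91% and 27.7% of its control, and in Fgf4 replicate 2, where it was high, at 3.09%. The part of these genes in the Cic knockdown result was not tested.

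No muscle, epidermis or notochord marker was called under Fgf4 overexpression among 6, 10 and 6 tested, with 0, 2 and 1 at an unadjusted limma p under 0.05, and their median log2 changes were 0.27, -0.518 and 0.444. Under Cic knockdown 1 of 6 notochord markers was called higher, *nog*, and none of the muscle or epidermis markers, with 1 and 0 at an unadjusted limma p under 0.05 and medians of -0.725 for muscle, 0.148 for epidermis and -0.235 for notochord. Neural crest markers had 1 of 7 called lower in each comparison, *twist1*, at -1.05 under Fgf4 overexpression and -1.01 under Cic knockdown (list medians -1.05 and -0.559). At an unadjusted limma p under 0.05 there were 3 and 2 of them. Endoderm markers had 1 of 7 called higher in each, *sox17b.2*, at 0.90 and 1.05 (list medians 0.0764 and -0.356). In each comparison 5 of the 7 had an unadjusted limma p under 0.05, in both directions. *sox17b.1* stood at 0.65 under Fgf4 overexpression and 0.64 under Cic knockdown, *gata6* at -1.43 and -1.15, and *gata5* at -0.87 and -0.90. Muscle RNA differed between libraries of a group, with sums between 1355 and 8143 TPM in Fgf4 libraries, against 1937 and 5287 TPM in control libraries. By the median deviation of this list, replicate 2 was the lowest library of each group. It stood at -1.2 in Fgf4 overexpressing, -0.714 in Cic knockdown and -0.531 in control embryos. The part of these tissues in the eye field result was not tested.

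Among 11 other transcriptional regulators of the eye field and optic vesicle, none was called under Fgf4 overexpression, and 2 were called lower under Cic knockdown. Under Fgf4 overexpression 5 had an unadjusted limma p under 0.05, in both directions. *bcor* (0.56) and *tbx2* (0.55) were higher, and *otx2*, *foxd1* and *hesx1* were lower. Under Cic knockdown 6 had an unadjusted limma p under 0.05, and all of them were lower (*otx2*, *foxd1*, *hesx1*, *mab21l2*, *pax2* and *tbx3*). The medians of the 11 were -0.609 under Fgf4 overexpression and -0.912 under Cic knockdown. *otx2*, a homeodomain gene of the forebrain and midbrain that acts before the eye field genes, was at 15.7, 35.4 and 42.3 TPM in Fgf4 replicates 1, 2 and 3 and at 10.6, 42.7 and 36.6 TPM in the Cic knockdown replicates, against 84.5, 65.8 and 76.7 TPM in the control replicates. All treated libraries were under the control range, the treated groups overlapped each other, and 41.1% of the control mean was left in Fgf4 overexpressing embryos and 39.6% in Cic knockdown embryos. Its log2 change was -1.38 (SE 0.41, limma adjusted p = 0.303, not called) under Fgf4 overexpression and -1.54 (SE 0.41, limma adjusted p = 0.142, called) under Cic knockdown. *foxd1*, a forkhead gene of the forebrain and temporal retina, was called under Cic knockdown at -1.69 (SE 0.40, limma adjusted p = 0.120) and stood at -1.10 (SE 0.40, limma adjusted p = 0.342) under Fgf4 overexpression. *hesx1*, a homeodomain gene of the anterior neural ridge that was chosen after its values were seen, also varied widely within the treated groups. It was at 3.63, 6.31 and 58.4 TPM in the Fgf4 replicates and 0.805, 29.0 and 64.6 TPM in the Cic knockdown replicates, against 30.2, 88.9 and 108 TPM in the control replicates. Its log2 change was -2.50 under Fgf4 overexpression and -2.30 under Cic knockdown (SE 0.78 each), called in neither.

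Among the secreted signals, antagonists and receptors that position the eye field, genes were called in both directions. *wnt8a*, a posteriorising Wnt ligand, was at 161, 288 and 183 TPM in Fgf4 replicates 1, 2 and 3 and at 149, 126 and 212 TPM in the Cic knockdown replicates, against 41.4, 74.6 and 87.8 TPM in the control replicates. All treated libraries were above the control range, and the log2 change was 1.65 (SE 0.28, limma adjusted p = 0.269) under Fgf4 overexpression and 1.29 (SE 0.28, limma adjusted p = 0.0996) under Cic knockdown, called higher in both, where 1.4% and 3.99% of all genes were. The secreted Wnt antagonist gene *frzb* was called higher as well, at 2.40 (SE 0.49, limma adjusted p = 0.287) under Fgf4 overexpression and 3.11 (SE 0.49, limma adjusted p = 0.0738) under Cic knockdown. The Wnt receptor gene *fzd8* was called lower under Fgf4 overexpression at -1.11 (SE 0.22, limma adjusted p = 0.287) and stood at -0.76 (SE 0.22, limma adjusted p = 0.174) under Cic knockdown. *sfrp2*, another Wnt antagonist gene, named after its values were seen, was called lower under Cic knockdown at -1.33 (SE 0.38, limma adjusted p = 0.166) and *nog*, a BMP antagonist gene, higher at 0.97 (SE 0.22, limma adjusted p = 0.103). Of 15 such genes tested, 1 was called lower and 2 higher under Fgf4 overexpression and 1 lower and 3 higher under Cic knockdown. At an unadjusted limma p under 0.05 there were 5 under Fgf4 overexpression and 10 under Cic knockdown, in both directions in each. The medians over the list were -0.328 and -0.345.

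The partners through which the members act on chromatin were not called. None of 7 corepressors and cofactors, among them the Groucho-related *tle* genes that bind Six3 and the LIM cofactor *ldb1*, was called in either comparison, with 3 under Fgf4 overexpression and 2 under Cic knockdown at an unadjusted limma p under 0.05 and medians of 0.193 and -0.133. The 3 were higher, at 1.12 for *bcl11a*, 0.61 for *tle2* and 0.30 for *ldb1*. Of the 2, *bcl11a* was higher (1.03) and *tle1* lower (-0.34). *bcl11a*, at 0.723 TPM in control embryos, passed the TPM filter through the treated means alone.

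The genes whose pattern was most like that of the members were found by Pearson correlation with the mean profile of the 6 members above the filter, over the 9 libraries after removing the mean of each replicate number. As the libraries share groups, this is a description with no test. Among 11150 named genes those with the highest values included *tcf4* (r = 0.993), *cyba* (0.990), *onecut2* (0.989) and *fezf1* (0.989). *fezf1*, a zinc finger gene of the forebrain, was at 1.28, 1.06 and 4.4 TPM in Fgf4 replicates 1, 2 and 3 and at 1.03, 2.53 and 1.48 TPM in the Cic knockdown replicates, against 12.8, 4.92 and 7.94 TPM in the control replicates. Like *rax*, it was highest in replicate 3 of the Fgf4 group and in replicate 2 of the Cic knockdown group. Its log2 change was -1.83 under Fgf4 overexpression and -2.02 under Cic knockdown, given without a test because the gene was chosen for this pattern. The likeness is one of shape and not of size, since *tcf4* had log2 changes of -0.27 under Fgf4 overexpression and -0.33 under Cic knockdown.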

How the data were processed

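The members and gene lists were chosen with earlier results of these data known. The authors trimmed reads with cutadapt, ran Salmon on them with *X. tropicalis* reference genome 9.1 and summed transcripts to genes in Sleuth (versions and annotation release not given in the sources used here). They deposited a signal per gene and library, named TPM in the header, rescaled between libraries by factors that the sources do not name. Every column was mapped to a library by its label, and the authors' mean columns were not used.

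Genes were fitted with limma 3.58.1 in R 4.3.3 on log2(TPM + 0.5), modelling condition plus replicate number in the 9 libraries together, and the variance prior followed the mean level (residual degrees of freedom 4, prior 3.31). Tests were two-sided, with Benjamini-Hochberg adjustment over all genes tested. The p values measure the spread between the libraries, which the sources tie to embryo batches without listing them, so replicate number was taken as batch. The pairing of libraries rests on those label numbers. Departures from the group mean correlated between libraries of equal number at 0.380 to 0.791 in 9 comparisons, and between different numbers at 0.337 at most. A p limit of 0.01, the fold limit of 1.75 or 0.571 and the TPM minimum of 1.5 follow the numbers in the study's methods, whose effect size may be a natural log, where 1.75 would be another fold (2.24 was tried). The procedure was run on simulated data with changes set in more abundant genes only, which does not check it for the rare members.

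Genes named are the 8 members, *sox2*, *sox3*, *otx2*, *fgf4* and *cic*, for each list up to 4 genes with the smallest p among those called against control, and the 5 genes most like the members. Other genes were added after their values were seen. Some genes that the rule names are not reported here. Other settings tried were leaving the replicate block out, adding 0.1 or 1 TPM, a TPM minimum of 5 or none, a fit of 6 libraries, a constant variance prior, median-of-ratios and quantile scaling, an adjusted p limit of 0.05, values relative to *sox2* and *sox3*, and fits lacking a library or a replicate number. No genome of the build used was at hand, so neither sequences nor coordinates are given.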

Additional observations from a re-analysis of the deposited data

How the results depend on the processing

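Against control, every member tested stayed below 0 in every fit, and with the deposited values, the block and all 9 libraries none passed an adjusted limma p of 0.05 (range over alternatives for *rax* 0.00363 to 1.00 under Fgf4 overexpression and 0.00114 to 0.770 under Cic knockdown). Members called lower under Fgf4 overexpression numbered 4, and 2 with a pseudocount of 0.1 and 0 at an adjusted p of 0.05. Leaving out libraries or replicate numbers gave 0 to 5, with 0 without Fgf4 replicate 1, 1 without Fgf4 replicate 2 or replicate number 1, and 2 without control replicate 1, control replicate 3, Cic knockdown replicate 3 or replicate number 3. Under Cic knockdown they numbered 5, and 3 with a TPM minimum of 5, where only 4 were tested, and 0 at an adjusted p of 0.05. Leaving out gave 0 to 6, with 0 without Cic knockdown replicate 3 or replicate number 1, 1 without control replicate 1 or Cic knockdown replicate 1, 2 without replicate number 3, and 3 without control replicate 2, control replicate 3 or Fgf4 replicate 1. The number of members tested against control also changed on leaving out, so these counts partly follow the TPM filter. It was 6 with all libraries, 4 without control replicate 1 or replicate number 1, and 7 without control replicate 2 or replicate number 2. Relative to *sox2* and *sox3*, an adjusted limma p of 0.05 was passed by 3 members under Fgf4 overexpression and 4 under Cic knockdown. That fit also called 1050 genes higher under Fgf4 overexpression and 7780 under Cic knockdown. So many small p values loosen the adjustment for every gene, so these passes add no support for the members. The same limit was passed by 1 member under Cic knockdown in the fit of 6 libraries (*pax6*, 0.0335). It was passed by 4 under Cic knockdown without Cic knockdown replicate 2, and by 1 under Fgf4 overexpression without Fgf4 replicate 3. Without the replicate block the members called lower were 3 under Fgf4 overexpression and 4 under Cic knockdown, *six3* being lost, and it changed no other member's call. The direct comparison had 0 in every fit.

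All genes called lower under Fgf4 overexpression numbered 156, and 62 without the replicate block, 249 with median-of-ratios scaling, 0 at an adjusted p of 0.05 and 18 to 818 on leaving out. Under Cic knockdown they numbered 102, and 48 without the block, 207 in the fit of 6 libraries, 165 with median-of-ratios and 191 with quantile scaling, 0 at an adjusted p of 0.05, 66 with the fold limit of 2.24 and 14 to 397 on leaving out. For Cic knockdown against Fgf4 overexpression they numbered 51, and 8 without the block, 30 with a TPM minimum of 5, 30 in the fit of 6 libraries, 87 with quantile scaling, 0 at an adjusted p of 0.05 and 16 to 305 on leaving out. In that comparison the log2 difference turned sign relative to *sox2* and *sox3* for *rax* (0.40) and *six3* (0.49), and on leaving out it ran between -1.75 and 0.86 for *rax*, -0.52 and 0.89 for *pax6* and -0.78 and 0.61 for *six3*. The causes were not tested. TPM keeps no counts, so the rare members (*six6*, *vax2*, *nr2e1*, *vax1*) carry an unknown counting error.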
